A study of Rattus norvegicus with 4 samples.

Results

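The genes described are the matrix metalloproteinases (Mmp), the ADAMs, the ADAMTS proteinases and the tissue inhibitors of metalloproteinases (Timp) of rat skeletal muscle. They were chosen by symbol alone, as every gene named Mmp, Timp, Adam or Adamts followed by a number and at most 1 letter, and no expression value was used. The rule took 70 of the 25399 genes in the files. Of these, 17 reached 100 CPM, counts scaled to a library and class total of 1000000, in at least 1 class, and 12 had no count at all. Single-cell 3' RNA sequencing libraries had been made from total cells of enzymatically digested muscle of rats aged 12 months. There were 4 libraries: extraocular muscles (EOM, which move the eye) labelled DMD, EOM labelled WT, tibialis anterior (TA, a limb muscle) labelled DMD, and TA labelled WT. DMD is the usual abbreviation of Duchenne muscular dystrophy and WT of wild type. The labels name no allele, strain, sex, treatment or number of animals, so nothing further can be said of the animals as a model.

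The groups follow the disease state given with each sample. In all 4 samples the title states the opposite disease state, so the libraries are called "labelled DMD" and "labelled WT" throughout, and reading the titles would turn round every DMD over WT difference. There was 1 library per group, so no difference has a replicate check, no test between libraries was run and no p-value is given. Ranges in parentheses are 95% intervals for counting error alone, which treat each unique molecular identifier (UMI) as independent. Levels are CPM of a cell class in a library. These come from 3' tags and are not scaled by length, so levels are compared between libraries and classes gene by gene, never between genes.

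Matrix metalloproteinases are zinc-dependent endopeptidases, secreted or membrane-anchored as inactive precursors, that cut collagens, proteoglycans and other proteins of the extracellular matrix. TIMPs bind their active sites and block them. ADAMs are membrane proteinases known for shedding the outer parts of membrane proteins, and ADAMTS enzymes are secreted proteinases that cut proteoglycans, process procollagens or clear von Willebrand factor. In skeletal muscle this set is known for turnover of the matrix around the fibres during repair and fibrosis, with fibro-adipogenic progenitors (FAPs, the resident mesenchymal cells) among its main sources.

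The stretches of 250 bases before the start of Timp1, Adamts4, Timp4 and Mmp3 are printed because these genes carry the main results: Timp1 and Adamts4 were higher in the libraries labelled DMD in several classes, Timp4 was lower there in endothelial-like cells, and Mmp3 shows a level set by single cells. They are from RefSeq on build GRCr8, each written from 5′ to 3′ on the gene's own strand. Capitals mark matches, on either strand, to the letters searched. The AP-1 motif was searched as TGANTCA, the STAT motif as TTCNNNGAA, the TATA box as TATAAA, and the GC box as GGGCGG.
Timp1, chrX:3771123-3771372, minus strand: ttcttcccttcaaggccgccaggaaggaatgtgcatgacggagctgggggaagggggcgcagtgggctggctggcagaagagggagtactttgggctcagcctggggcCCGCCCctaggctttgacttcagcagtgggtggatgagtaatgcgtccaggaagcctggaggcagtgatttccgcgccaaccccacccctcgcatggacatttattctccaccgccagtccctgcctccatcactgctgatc
Adamts4, chr13:86202761-86203010, plus strand: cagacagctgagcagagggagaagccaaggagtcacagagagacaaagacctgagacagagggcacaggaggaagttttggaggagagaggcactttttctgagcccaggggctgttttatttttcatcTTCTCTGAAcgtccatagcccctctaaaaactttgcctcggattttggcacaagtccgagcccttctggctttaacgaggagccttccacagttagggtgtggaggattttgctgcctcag
Timp4, chr4:149985205-149985454, minus strand: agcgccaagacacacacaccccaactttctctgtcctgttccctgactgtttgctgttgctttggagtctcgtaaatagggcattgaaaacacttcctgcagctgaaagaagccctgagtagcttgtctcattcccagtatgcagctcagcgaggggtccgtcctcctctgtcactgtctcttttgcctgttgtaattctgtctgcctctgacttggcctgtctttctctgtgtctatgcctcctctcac
Mmp3, chr8:12925031-12925280, plus strand: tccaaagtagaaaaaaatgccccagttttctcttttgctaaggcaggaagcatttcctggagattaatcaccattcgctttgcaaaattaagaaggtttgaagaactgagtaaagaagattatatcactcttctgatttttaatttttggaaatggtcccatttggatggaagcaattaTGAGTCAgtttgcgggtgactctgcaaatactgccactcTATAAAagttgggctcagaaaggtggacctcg
The Timp1 match is a GC box whose first base lies at -142 from the start, and the Adamts4 match is a STAT motif at -121. Mmp3 holds an AP-1 motif at -71 and a TATA box at -32. The Timp4 window holds none of the searched letters, which also included CRE (TGACGTCA) and an NF-kB motif, given by name only. No match overlaps another in these 4 windows. Of the 70 members, 46 had a promoter in the table. The AP-1 letters were in 8 of the 46 (17.4%), against 6.36% of all 27457 promoters of the same length, and the 8 were Adam19, Mmp1, Mmp3, Mmp7, Mmp10, Mmp12, Mmp13 and Mmp20. The TATA box was in 15 of 46 (32.6%), against 13.1% of all, the GC box in 22 of 46 (47.8%), against 32.4%, and STAT in 5 of 46 (10.9%), against 7.52%. The CRE letters were in 0 of 46, against 1.7% of all promoters, and the NF-kB motif in 0 of 46, against 1.28%. These matches describe the letters and were not tested for binding or effect.

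The cells analysed numbered 2261 in EOM labelled DMD, 1249 in EOM labelled WT, 7964 in TA labelled DMD and 2083 in TA labelled WT, with 12113554, 6522986, 19196937 and 6725438 UMIs. The median cell held 4486, 3654, 1221.5 and 2482 UMIs, with the lowest depth in TA labelled DMD. Pairs of libraries shared 0 to 5 cell barcodes among the cells analysed. The cells formed 32 clusters, built without the 70 members, and classes were named from marker lists as "X-like". Muscle cells were present in each library, with 154, 39, 203 and 139 myofibre-like and 225, 134, 297 and 56 satellite-like (muscle stem) cells in that order. FAP/fibroblast-like cells, called FAP-like here, numbered 688 in EOM labelled DMD, 228 in EOM labelled WT and 1383 in TA labelled DMD, but only 9 in TA labelled WT, so no FAP difference between the 2 TA libraries could be formed. Macrophage-, tenocyte- and Schwann-like cells were likewise under 50 in TA labelled WT. Markers of other classes were high in the erythroid-like class of TA labelled DMD. This class (272 cells, median 971.5 UMIs) carried 208230 CPM of erythroid markers, against 637430 CPM in TA labelled WT (63 cells, median 17358 UMIs), and 4473 CPM of FAP markers, against 18.7 CPM. The erythroid-like and NK cell-like levels of that library are therefore given as a background beside its results, and their part in the results was not tested.

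Of the 70 members, 58 had at least 1 UMI, 105745 UMIs in all. The 4 TIMPs held 52651 of them, the 7 proteoglycan-cutting ADAMTS genes 18502, the 2 gelatinases 11880, the 25 ADAMs 10974, the 5 membrane-type MMPs 5240 and the 3 procollagen N-proteinases 1742. The 12 members with no UMI were Adam6a, Adam7, Adam21, Adam24, Adam28, Adam34, Adam34l, Adamts18, Mmp1b, Mmp11, Mmp20 and Mmp21. A further 16 members had 1 to 19 UMIs. Several enzymes often discussed in muscle injury were among these: Mmp9 (gelatinase B) had 15 UMIs over all 4 libraries, Mmp13 (collagenase 3) 6, Mmp10 (stromelysin 2) 5 and Mmp12 (macrophage elastase) 1. The members that reached 100 CPM in a class of at least 50 cells were Timp1 to Timp4, Mmp2, Mmp3, Mmp8, Mmp14, Mmp15, Mmp23, Adam10, Adam15, Adam19, Adamts1, Adamts2, Adamts4 and Adamts5.

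**Figure D1:**
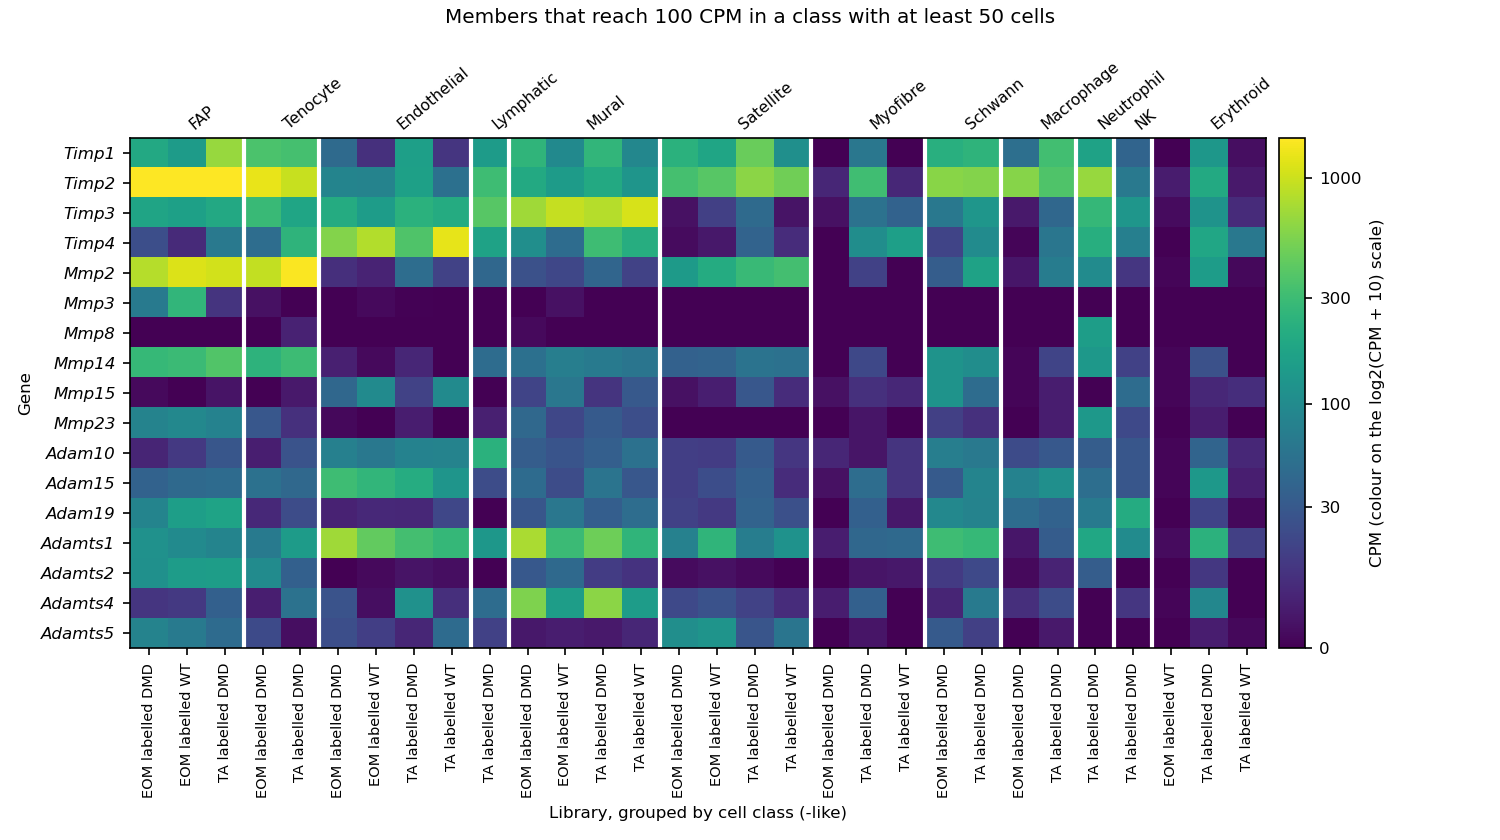
Levels of the 17 members that reached 100 CPM (rows) in each library (columns), grouped by cell class, with CPM shown in colour on a log2(CPM + 10) scale. Timp2 and Mmp2 are brightest in FAP- and tenocyte-like cells, Timp3 in mural-like cells, Timp4 in endothelial-like cells, and Adamts4 in mural-like cells of the libraries labelled DMD.

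A member and class was compared where both libraries had at least 50 cells and together at least 20 UMIs of the gene, and it was called where log2((CPM + 10)/(CPM + 10)) passed 2-fold. In all, 37 members could be compared somewhere, 19 were called at least once, and 5 with 20 or more UMIs met the minimum nowhere (Adam11, Adam12, Adam30, Adamts3 and Mmp8). In TA labelled DMD over TA labelled WT, 22 of 75 gene and class pairs were called higher, against 12.8% of all genes' pairs, and 4 were called lower, against 3.16%. Of the 22, 9 lay in the erythroid-like class, where 91.5% of all genes were called higher. Without that class, 13 of 66 were higher, against 5.36% of all pairs, and 4 were lower, against 3.22%. In EOM labelled DMD over EOM labelled WT, 6 of 80 pairs were higher, against 1.53% of all, and 6 were lower, against 1.13%. In EOM over TA labelled WT, 2 of 49 were higher, against 1.15%, and 3 lower, against 3.34%. In EOM over TA labelled DMD, 7 of 141 were higher, against 2.64%, and 26 lower, against 5.05%. The 4 comparisons share libraries, so their counts are not independent.

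The higher calls in the DMD-labelled TA library lay mainly among the inhibitors. Of 15 TIMP pairs outside the erythroid-like class, 7 were higher and 1 was lower (median log2 ratio 0.64), where all genes gave 5.36% and 3.22%. The 7 were Timp1 in endothelial-, mural- and satellite-like cells, Timp2 in endothelial- and myofibre-like cells, and Timp3 and Timp4 in satellite-like cells, and the lower one was endothelial-like Timp4. Of the 7, endothelial-like Timp1 and Timp2 lay within the erythroid-like intervals of TA labelled DMD, and satellite-like Timp3 and Timp4 below the erythroid-like level. Myofibre-like Timp2 lay above the erythroid-like level as a class, but below it in the cluster shared with TA labelled WT. Of the 15 proteoglycan-cutting ADAMTS pairs, 3 were higher and 2 lower (median -0.07), and of the 14 ADAM pairs 1 was higher and 0 were lower (median 0.16). In EOM labelled DMD over EOM labelled WT, where all genes gave 1.53% higher and 1.13% lower, 3 of 14 TIMP pairs were higher and 0 lower (median 0.38), 3 of 18 proteoglycan-cutting ADAMTS pairs were higher and 2 lower (median 0.15), and 0 of 23 ADAM pairs passed in either direction (median -0.13).

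Timp1 encodes a secreted inhibitor of most soluble MMPs and is known as a gene induced by injury and inflammation. It was higher in the library labelled DMD in mural-like cells (pericytes and smooth muscle) of both muscles. Mural-like Timp1 was 255 CPM (221 to 293) in EOM labelled DMD and 96.4 CPM (68.9 to 131) in EOM labelled WT, a 2.64-fold difference (1.87 to 3.81). Its log2 ratio was 1.32, and 0.92, no longer called, with cells thinned to 1000 UMIs. In TA it was 261 CPM (245 to 277) in the library labelled DMD and 91.8 CPM (72.3 to 115) in the library labelled WT, 2.84-fold (2.25 to 3.63). The level in the 2 libraries labelled DMD thus differed by less than counting error, with a ratio of 0.978 (0.836 to 1.14) for EOM over TA. In EOM labelled DMD, 1 cell held 54 of the 198 Timp1 UMIs. Different clusters made up the class: cluster 2 held 45.8% of TA labelled DMD, and cluster 20 held 65.4% of TA labelled WT. Within cluster 20 alone, Timp1 was 150 CPM in EOM labelled DMD and 49.6 CPM in EOM labelled WT, and 149 CPM in TA labelled DMD and 92.6 CPM in TA labelled WT. The 2 TA levels of cluster 20 thus lay within 2-fold. The erythroid-like background in TA labelled DMD was 132 CPM. The mural-like class level of that library lay above it, but its cluster 20 level lay within the erythroid-like interval. The part of this background was not tested.

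In satellite-like cells, the muscle stem cells, Timp1 was 463 CPM (416 to 514) in TA labelled DMD and 111 CPM (78.3 to 153) in TA labelled WT, 4.16-fold (2.96 to 6.01). Cluster 12 held 76.8% of the class in TA labelled DMD, but within cluster 22, shared by all 4 libraries, the levels were 389 CPM in TA labelled DMD and 111 CPM in TA labelled WT (3.51-fold, 2.44 to 5.17). The background in TA labelled DMD was 132 CPM in erythroid-like and 40.6 CPM in NK cell-like cells. In EOM the same cells were at 234 CPM (208 to 262) in the library labelled DMD and 180 CPM (151 to 213) in the library labelled WT, 1.30-fold (1.06 to 1.60) and below the 2-fold limit.

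Endothelial-like Timp1 was called higher in the library labelled DMD in both muscles, and its background stands beside it here. The level was 159 CPM (150 to 168) in TA labelled DMD and 11.5 CPM (8.34 to 15.4) in TA labelled WT, 13.8-fold (10.2 to 19.1), but the erythroid-like cells of TA labelled DMD were at 132 CPM (98.9 to 173). The share of endothelial-like cells with a Timp1 UMI was 21.3% in TA labelled DMD and 2.18% in TA labelled WT, and with every cell thinned to 1000 UMIs it was 11.4% in TA labelled DMD and 0.886% in TA labelled WT. In TA labelled DMD the thinned share was 9.85% (5.35 to 16.3) in erythroid-like cells, and 6.06% (1.68 to 14.8) in NK cell-like cells, whose Timp1 level was 40.6 CPM (19.5 to 74.6). The endothelial-like level thus lay within the erythroid-like interval and above the NK cell-like one. FAP markers summed to 1330 CPM in these endothelial-like cells of TA labelled DMD, against 195 CPM in TA labelled WT, and mural markers to 753 CPM in TA labelled DMD, against 42.0 CPM in TA labelled WT. Their part in the result was not tested. In EOM the class was at 46.2 CPM (36.4 to 57.8) in the library labelled DMD and 9.86 CPM (5.39 to 16.5) in the library labelled WT, 4.68-fold (2.63 to 8.97), with 1 cell holding 23 of the 76 UMIs in EOM labelled DMD.

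The endothelial-like clusters differed among themselves. Cluster 0, led by Plvap, Selp, Sele, Ccl7 and Vcam1 (genes of activated venous endothelium), held 21 cells of EOM labelled DMD, 742 of TA labelled DMD and 12 of TA labelled WT. Timp1 was 295 CPM (218 to 391) there in EOM labelled DMD and 262 CPM (245 to 280) in TA labelled DMD, above both backgrounds of that library. In clusters 5, 6, 7 and 16 it was 90.8, 48.3, 54.2 and 129 CPM in TA labelled DMD, at or below the erythroid-like level, against 11.1, 6.13, 2.17 and 46.1 CPM in TA labelled WT. In cluster 16 of EOM, Timp1 was 32.6 CPM in the library labelled DMD and 31.9 CPM in the library labelled WT, so there the 2 did not differ beyond counting error. The 21 cells of cluster 0 held 48 of the 76 Timp1 UMIs of the class in EOM labelled DMD.

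**Figure D2:**
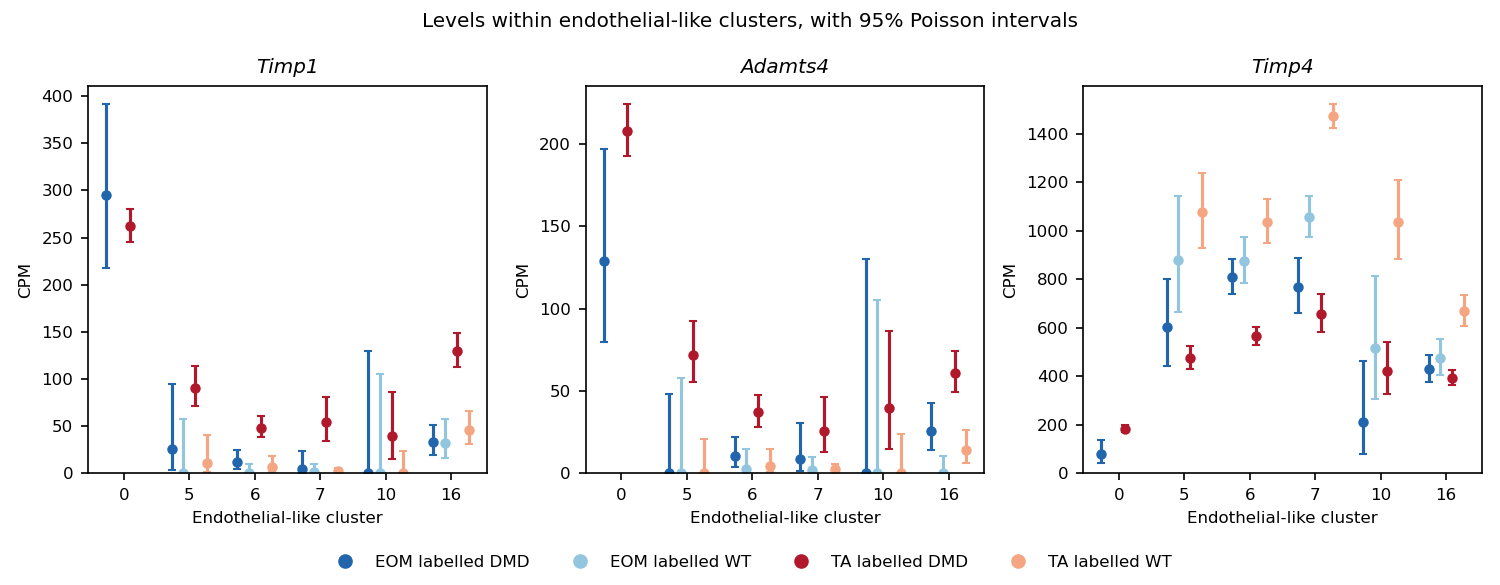
Timp1, Adamts4 and Timp4 levels (CPM) by endothelial-like cluster and library (colour), with 95% Poisson intervals as bars and libraries with few cells left out. Timp1 and Adamts4 stand highest in cluster 0 of the 2 libraries labelled DMD, while Timp4 is lower in TA labelled DMD than in TA labelled WT in each of the 5 shared clusters.

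FAP-like cells separate the 2 muscles labelled DMD. Timp1 was 194 CPM (182 to 207) in EOM labelled DMD and 675 CPM (647 to 705) in TA labelled DMD, a ratio of 0.287 (0.265 to 0.311), while EOM labelled WT was at 145 CPM (127 to 166). The difference between the 2 EOM libraries was 1.34-fold (1.15 to 1.55), below the limit. The FAP-like cells of the 2 muscles fell in different clusters: cluster 24 held 83.1% of those in EOM labelled DMD and 81.1% of those in EOM labelled WT, and cluster 8 held 81.2% of those in TA labelled DMD. Macrophage-like Timp1 was 51.9 CPM (40.8 to 65.1) in EOM labelled DMD and 318 CPM (287 to 352) in TA labelled DMD. Cluster 18 held 4.96% of the class in EOM labelled DMD and 44.5% in TA labelled DMD. Within cluster 11, Timp1 was 89.9 CPM (69.6 to 114) in EOM labelled DMD and 118 CPM (91.6 to 149) in TA labelled DMD, and within cluster 13 it was 7.0 CPM (1.91 to 17.9) in EOM labelled DMD and 405 CPM (335 to 485) in TA labelled DMD. Beside it, FAP markers in these macrophage-like cells summed to 530 CPM in EOM labelled DMD and 2361 CPM in TA labelled DMD, and erythroid markers to 112 CPM in EOM labelled DMD and 6347 CPM in TA labelled DMD. They moved with the Timp1 level, and their part in the result was not tested. Tenocyte- and Schwann-like levels were close: 352 and 328 CPM of Timp1 in tenocyte-like cells of EOM and TA labelled DMD, and 223 and 251 CPM in Schwann-like cells.

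Timp2 encodes the inhibitor that also takes part in activating pro-Mmp2 at the cell surface, and its level in FAP-like cells differed little between the 3 libraries with that class. It was 1478 CPM in EOM labelled DMD, 1459 CPM in EOM labelled WT and 1457 CPM in TA labelled DMD, with ratios of 1.01 (0.966 to 1.06) for EOM labelled DMD over EOM labelled WT and 1.01 (0.977 to 1.05) for EOM over TA labelled DMD. Satellite-like cells were at 332 CPM in EOM labelled DMD, 396 CPM in EOM labelled WT, 614 CPM in TA labelled DMD and 490 CPM in TA labelled WT, all within 2-fold. Endothelial-like Timp2 was called higher in TA labelled DMD, at 162 CPM against 53.2 CPM in TA labelled WT (log2 ratio 1.44), but 199 CPM stood in the erythroid-like cells of TA labelled DMD, and the log2 ratio was 0.82 with no doublets removed and 0.80 with each library clustered alone. Myofibre-like Timp2 was 312 CPM in TA labelled DMD and 7.57 CPM (2 UMIs) in TA labelled WT, a ratio of 41.2 (11.1 to 345). Of that class, the 41 cells of the Myog-led cluster 21, all from TA labelled DMD, were at 826 CPM, and cluster 1 was at 89.4 CPM in TA labelled DMD and 7.57 CPM in TA labelled WT. The cluster 1 level of TA labelled DMD lay below the 199 CPM of its erythroid-like cells. Cluster 21 was led by Myog, Ankrd1, Actc1 and Tnnt2, with 1 myofibre marker among its 10 leading genes, so the class level joins these cells with those of cluster 1.

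Timp3 encodes a TIMP that stays bound to the matrix and also inhibits ADAM17 and aggrecanases. It led in mural-like cells, at 713 CPM in EOM labelled DMD, 954 CPM in EOM labelled WT, 851 CPM in TA labelled DMD and 1094 CPM in TA labelled WT. The library labelled DMD was lower by less than 2-fold in both muscles, with ratios of 0.747 (0.656 to 0.852) in EOM and 0.777 (0.722 to 0.837) in TA. Endothelial-like levels were 208, 150, 234 and 208 CPM in that order. Satellite-like Timp3 was 46.0 CPM in TA labelled DMD and 3.01 CPM in TA labelled WT, called higher, but below the 120 CPM of the erythroid-like cells of TA labelled DMD.

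**Figure D3:**
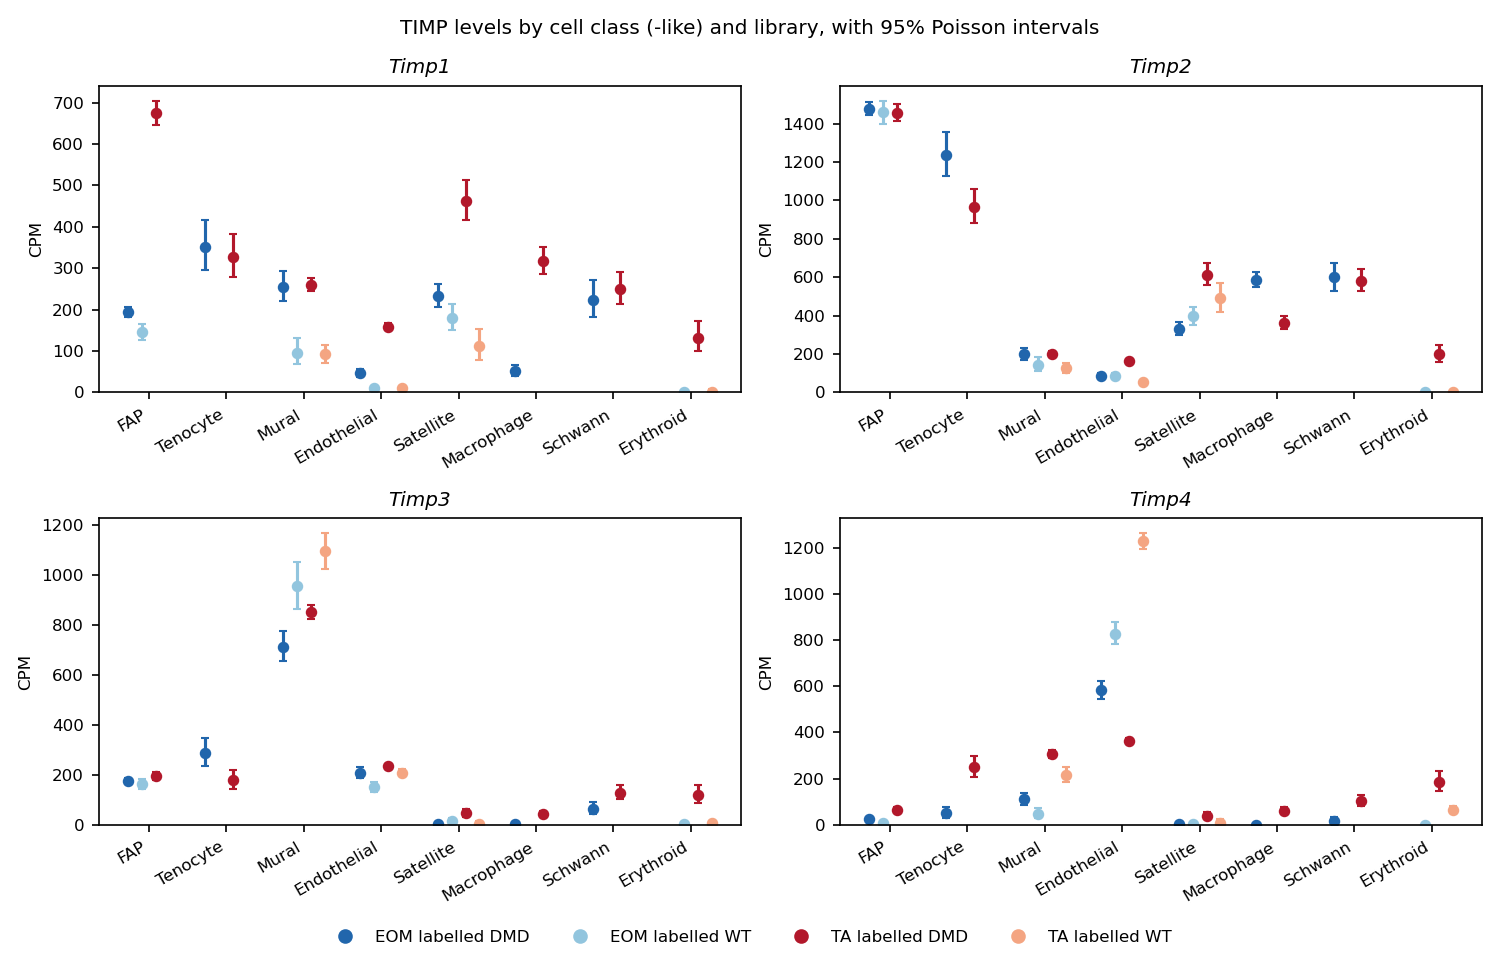
Levels of the 4 TIMPs (CPM, linear axes) by cell class and library (colour), with 95% Poisson intervals as bars and classes under 50 cells left out. Timp2 in FAP-like cells lies at 1457 to 1478 CPM in the 3 libraries with that class, and Timp4 in endothelial-like cells is lowest in TA labelled DMD (363 CPM) and highest in TA labelled WT (1228 CPM).

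Timp4 is known for its high level in heart and vessel walls. In endothelial-like cells it was lower in the library labelled DMD, past the limit in TA, with 363 CPM (350 to 377) in TA labelled DMD and 1228 CPM (1193 to 1264) in TA labelled WT, a ratio of 0.296 (0.282 to 0.310). The share of cells with a Timp4 UMI was 45.6% in TA labelled DMD and 78.4% in TA labelled WT, and 31.2% and 64.5% with cells thinned to 1000 UMIs. The class was made of different clusters, with cluster 7 holding 5.78% of TA labelled DMD and 56.2% of TA labelled WT. Within each of the 5 shared clusters Timp4 was still lower in TA labelled DMD: 475 against 1075 CPM in TA labelled WT in cluster 5, 564 against 1035 in cluster 6, 657 against 1472 in cluster 7, 422 against 1037 in cluster 10, and 392 against 669 in cluster 16. In EOM the class was at 583 CPM (546 to 621) in the library labelled DMD and 828 CPM (781 to 877) in the library labelled WT, a ratio of 0.704 (0.645 to 0.767), in the same direction but within 2-fold. The erythroid-like cells of TA labelled DMD held 184 CPM of Timp4 and those of TA labelled WT 64.6 CPM, and their part in the result was not tested.

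Mural-like Timp4 differed more between muscles than between labels. It was 109 CPM in EOM labelled DMD, 48.2 CPM in EOM labelled WT, 308 CPM in TA labelled DMD and 216 CPM in TA labelled WT. EOM was lower than TA in both pairs, with ratios of 0.356 (0.282 to 0.444) for the libraries labelled DMD and 0.223 (0.133 to 0.355) for those labelled WT. Over all analysed cells of a library, Timp4 was 98.4, 188, 245 and 746 CPM in the same order. The mural-like level of TA labelled WT was under 0.5 of its library's level. The guard against free RNA described below therefore drops the call for the libraries labelled WT. The part of this background in the mural-like result was not tested. The higher level in EOM labelled DMD than in EOM labelled WT, 2.27-fold (1.38 to 3.9), was just past the limit (log2 ratio 1.04), while the TA difference of 1.42-fold (1.21 to 1.67) was not. The EOM log2 ratio was not past it with a prior of 50 CPM (0.70), with the members among the clustering genes (0.88), with each library clustered alone (0.78) or as a mean over cells (0.91).

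Mmp2 (gelatinase A) degrades denatured collagen and basement membrane, and Mmp14 is the membrane-type MMP known to activate it. Both led in the matrix-making cells. Mmp2 was 836 CPM in FAP-like cells of EOM labelled DMD, 1133 CPM in EOM labelled WT and 1038 CPM in TA labelled DMD, and 935 and 1423 CPM in tenocyte-like cells of EOM and TA labelled DMD. None of these ratios passed 2-fold, with 0.738 (0.697 to 0.781) for the 2 EOM libraries. Mmp14 in FAP-like cells was 276, 295 and 374 CPM in EOM labelled DMD, EOM labelled WT and TA labelled DMD. Satellite-like Mmp2 was 142 CPM in EOM labelled DMD, 209 CPM in EOM labelled WT, 289 CPM in TA labelled DMD and 325 CPM in TA labelled WT, and none of its 4 ratios was called.

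Outside erythroid-like cells, Mmp2 was called in endothelial-, macrophage- and Schwann-like cells. Endothelial-like Mmp2 was 49.7 CPM in TA labelled DMD and 16.7 CPM in TA labelled WT (log2 ratio 1.16), below the 150 CPM of the erythroid-like cells of TA labelled DMD. It was 9.72 CPM in endothelial-like cells of EOM labelled DMD, called lower than in TA labelled DMD, and 3.46 CPM in macrophage-like cells of EOM labelled DMD against 71.7 CPM in TA labelled DMD. Schwann-like Mmp2 was 33.4 CPM in EOM labelled DMD and 167 CPM in TA labelled DMD (log2 ratio -2.03). That ratio was -0.48 with coarser clusters, at resolution 0.5, and -0.59 with each library clustered alone, which ends the call.

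Mmp15, another membrane-type MMP, was found in endothelial-like cells, where it was lower in the library labelled DMD in both muscles. It was 43.1 CPM in EOM labelled DMD and 98.6 CPM in EOM labelled WT, a ratio of 0.438 (0.324 to 0.586), and 17.0 CPM in TA labelled DMD and 99.9 CPM in TA labelled WT, a ratio of 0.170 (0.139 to 0.208). The 2 libraries labelled WT thus had near-equal levels, with a ratio of 0.987 (0.807 to 1.20). The class was made of different clusters, with cluster 7 holding 15.4% of EOM labelled DMD and 39.6% of EOM labelled WT. In TA it held 5.78% of the library labelled DMD and 56.2% of the library labelled WT. The part of the clusters in the Mmp15 result was not tested. Mural-like Mmp15 went the same way: 18 and 62.7 CPM in EOM labelled DMD and labelled WT (called), and 11.2 and 30.2 CPM in TA labelled DMD and labelled WT (log2 ratio -0.92, not called). Satellite-like Mmp15 was called higher in TA, at 28.9 CPM in TA labelled DMD and 9.02 CPM (3 UMIs) in TA labelled WT, a ratio of 3.21 (0.964 to 16.7), and was 2.41 CPM in EOM labelled DMD and 5.25 CPM in EOM labelled WT. Schwann-like Mmp15 was 120 CPM in EOM labelled DMD and 49.0 CPM in TA labelled DMD. Its log2 ratio of 1.14 was called, but was 0.78 at its lowest over the alternative settings, which ends the call.

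**Figure D4:**
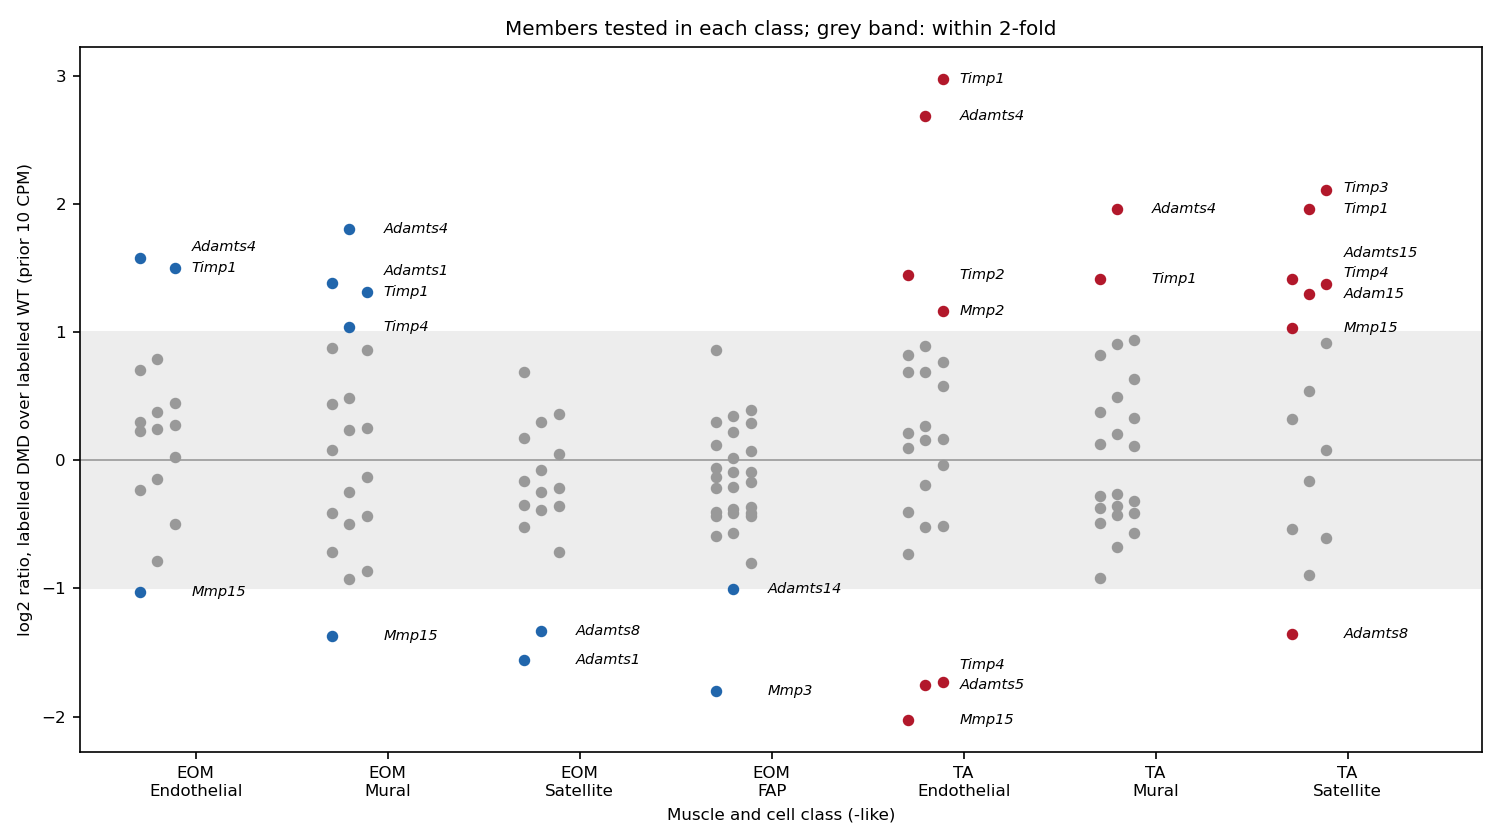
Log2 ratios of labelled DMD over labelled WT, with a prior of 10 CPM, for the members tested in each muscle and class, 1 point a member, with the grey band marking 2-fold and coloured points the calls. Adamts4 and Timp1 in mural-like cells lie above the band in both muscles, and Mmp15 in endothelial-like cells below it in both.

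Mmp3 (stromelysin 1), which cuts proteoglycans and activates other pro-MMPs, was found in few FAP-like cells with many UMIs each. It was 67.6 CPM (315 UMIs in 32 of 688 cells) in EOM labelled DMD, 261 CPM (407 UMIs in 12 of 228 cells) in EOM labelled WT and 11.3 CPM (35 UMIs in 18 of 1383 cells) in TA labelled DMD. The EOM ratio was called lower (log2 -1.80), but 1 cell of EOM labelled WT held 280 UMIs, 68.8% of the total. Without the highest cell of each library the levels were 50.2 CPM (43.9 to 57.0) and 82.0 CPM (68.4 to 97.6) in EOM labelled DMD and labelled WT, log2 -0.61, and the call was lost. The shares of cells with a UMI were 4.65% in EOM labelled DMD and 5.26% in EOM labelled WT. With cells thinned to 1000 UMIs they were 2.16% in EOM labelled DMD and 2.75% in EOM labelled WT, and did not differ beyond counting error.

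Mmp23 was likewise a gene of FAP-like cells, at 83.7 CPM in EOM labelled DMD, 92.8 CPM in EOM labelled WT and 82.0 CPM in TA labelled DMD. Among classes of at least 50 cells it passed 100 CPM only in the 52 neutrophil-like cells of TA labelled DMD, at 135 CPM (58.1 to 265, 8 UMIs). FAP markers summed to 14715 CPM in these cells, and their part in the result was not tested. Mmp27 was 36.7, 39.7 and 7.45 CPM in the same libraries and was called higher in EOM over TA labelled DMD (log2 1.42). Mmp8, the neutrophil collagenase, was found in neutrophil-like cells, with 86 UMIs in 14 of 36 cells of EOM labelled DMD (839 CPM) and 9 UMIs in 5 of 52 cells of TA labelled DMD (151 CPM). These classes were too small to compare.

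**Figure D5:**
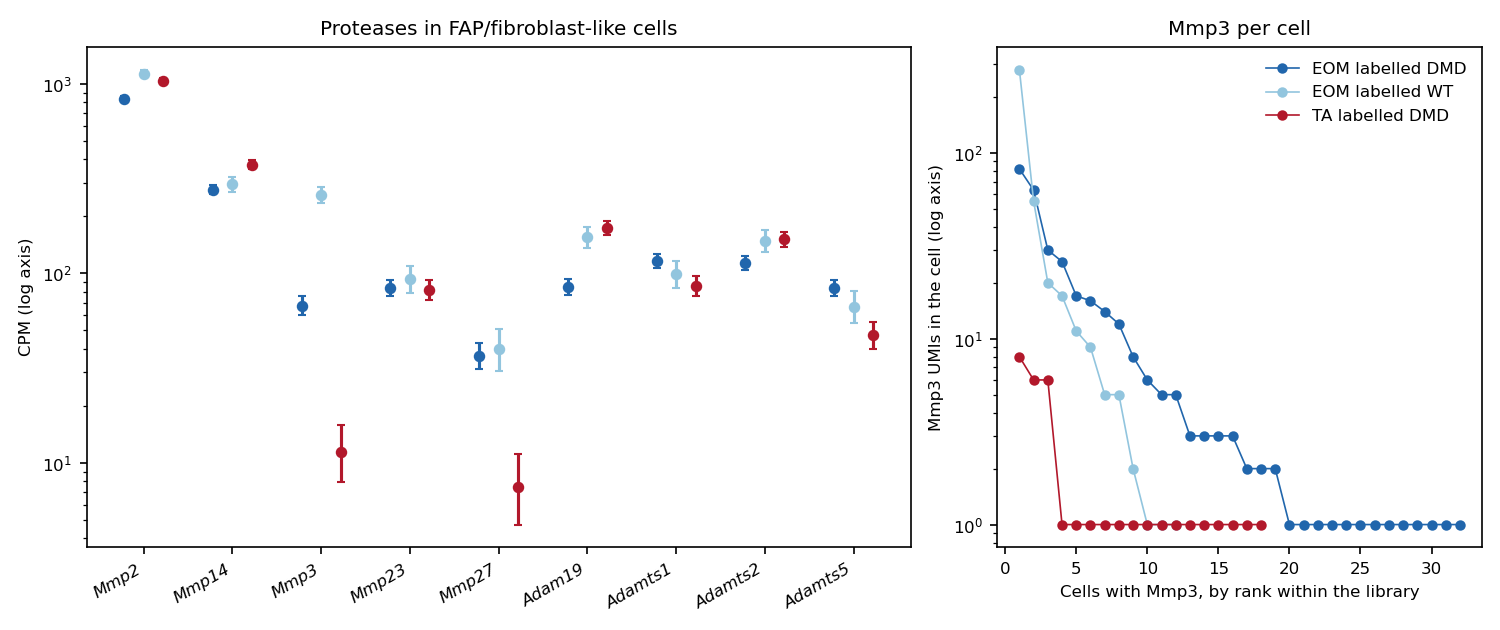
Left, proteinase levels in FAP-like cells (CPM, log axis) with 95% Poisson intervals; right, Mmp3 UMIs of each FAP-like cell that holds any (log axis), ranked within its library. Mmp2, Mmp14, Mmp23 and Adamts2 lie within 2-fold in the 3 libraries, Mmp3 and Mmp27 are lowest in TA labelled DMD, and 1 cell of EOM labelled WT holds 280 Mmp3 UMIs.

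Between the 2 EOM libraries 0 of 23 ADAM pairs were called, where all genes gave 1.53% higher and 1.13% lower. Adam10, a sheddase of Notch receptors and many other membrane proteins, was 78.4 CPM in endothelial-like cells of EOM labelled DMD, 64.8 CPM in EOM labelled WT, 81.3 CPM in TA labelled DMD and 83.5 CPM in TA labelled WT, and its highest level was 233 CPM in lymphatic endothelial-like cells of TA labelled DMD. Adam15, whose outer part binds integrins, led in endothelial-like cells at 307, 261, 210 and 127 CPM in the same order. Its EOM over TA ratio for the libraries labelled WT was 2.06 (1.79 to 2.36), with log2 0.99 after the prior and so not called. Adam17, the TNF-converting enzyme, was 45.6, 85.9, 30.5 and 48.0 CPM in those cells, lower in the library labelled DMD by less than 2-fold in both muscles. Adam19 was 84.8 CPM in FAP-like cells of EOM labelled DMD, 156 CPM in EOM labelled WT and 173 CPM in TA labelled DMD, and 207 CPM in NK cell-like cells of TA labelled DMD. The ADAM pairs called outside erythroid-like cells were 4. In TA labelled DMD over TA labelled WT, 1 of 14 was higher and 0 lower, against 5.36% and 3.22% of all pairs. In EOM over TA labelled DMD, 1 of 38 was higher and 2 lower, against 2.64% and 5.05%. These counts are near the shares of all genes and say nothing particular of the ADAMs. Satellite-like Adam15 was 36.8 CPM in TA labelled DMD against 9.02 CPM in TA labelled WT, and Schwann-like Adam15 was 31.2 CPM in EOM labelled DMD against 86.4 CPM in TA labelled DMD. FAP-like Adam10 was 6.87 CPM in EOM labelled DMD against 27.9 CPM in TA labelled DMD, and satellite-like Adam9 was 20.9 CPM in EOM labelled DMD against 5.26 CPM in TA labelled DMD.

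Adamts4, an aggrecanase that also cuts versican, was higher in mural-like cells of the library labelled DMD in both muscles. Mural-like Adamts4 was 555 CPM (504 to 610) in EOM labelled DMD and 152 CPM (117 to 194) in EOM labelled WT, 3.65-fold (2.80 to 4.84). In TA it was 611 CPM (587 to 636) in the library labelled DMD and 150 CPM (125 to 179) in the library labelled WT, 4.08-fold (3.40 to 4.93). The 2 muscles did not differ beyond counting error within a label, with EOM over TA ratios of 0.908 (0.818 to 1.01) for labelled DMD and 1.01 (0.736 to 1.38) for labelled WT. The share of cells with a UMI was 59.9% and 26.7% in EOM labelled DMD and labelled WT, and 35.6% and 24.7% in TA labelled DMD and labelled WT. With cells thinned to 1000 UMIs the shares were 35.3% and 8.89% in EOM, and 33.0% and 9.36% in TA. Within cluster 20, which all 4 libraries share, Adamts4 was 595 CPM in EOM labelled DMD and 183 CPM in EOM labelled WT (3.25-fold), and 812 CPM in TA labelled DMD and 168 CPM in TA labelled WT (4.85-fold). The erythroid-like background in TA labelled DMD was 92.2 CPM (64.9 to 127) and the NK cell-like one 12.2 CPM (2.51 to 35.6). FAP markers summed to 3518, 2468, 4081 and 2449 CPM in the mural-like cells of EOM labelled DMD, EOM labelled WT, TA labelled DMD and TA labelled WT, and their part in the result was not tested.

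Endothelial-like Adamts4 was 26.1 CPM in EOM labelled DMD and 2.11 CPM (3 UMIs) in EOM labelled WT, a ratio of 12.4 (3.96 to 62.3), and 117 CPM in TA labelled DMD and 9.65 CPM in TA labelled WT, 12.1-fold (8.70 to 17.3). The level in TA labelled DMD lay within the erythroid-like interval of that library, 92.2 CPM (64.9 to 127), and above the NK cell-like one, 12.2 CPM (2.51 to 35.6). Cluster 0 had 129 CPM (79.9 to 197) in its 21 cells of EOM labelled DMD and 208 CPM (193 to 224) in those of TA labelled DMD, above both backgrounds of that library. In clusters 5, 6 and 16 of TA labelled DMD, Adamts4 was 72.1, 37.0 and 60.9 CPM, between the NK cell-like and erythroid-like levels, and the interval of cluster 6 (28.2 to 47.8) overlapped that of NK cell-like cells.

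Adamts1, a proteinase that cuts aggrecan and versican and binds VEGF, was higher in mural-like cells of the library labelled DMD, past the limit in EOM. It was 775 CPM in EOM labelled DMD and 292 CPM in EOM labelled WT, 2.66-fold (2.18 to 3.26), and 481 CPM in TA labelled DMD and 252 CPM in TA labelled WT, 1.91-fold (1.65 to 2.21). Satellite-like cells went the other way: 79.5 CPM in EOM labelled DMD against 253 CPM in EOM labelled WT, a ratio of 0.314 (0.244 to 0.402), and 73.6 CPM in TA labelled DMD against 117 CPM in TA labelled WT, a ratio of 0.628 (0.410 to 0.971) that was not called. Endothelial-like Adamts1 was 717, 437, 323 and 267 CPM in EOM labelled DMD, EOM labelled WT, TA labelled DMD and TA labelled WT, so EOM was higher under both labels, past the limit for labelled DMD at 2.22-fold (2.07 to 2.38). The log2 ratio for labelled DMD was 1.13, and 0.95 at its lowest over the alternative settings, which ends the call.

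Adamts5 is the other main aggrecanase, and in endothelial-like cells it differed between the labels beyond counting error in TA but not in EOM. It was 23.1 CPM in EOM labelled DMD and 15.5 CPM in EOM labelled WT, a ratio of 1.49 (0.859 to 2.65), but 7.12 CPM in TA labelled DMD and 47.7 CPM in TA labelled WT, a ratio of 0.149 (0.108 to 0.202). EOM was therefore lower than TA for labelled WT, with a ratio of 0.325 (0.198 to 0.506), and higher for labelled DMD, 3.24-fold (2.09 to 4.99), although the log2 ratio for labelled DMD stayed within 2-fold once 10 CPM were added (log2 0.95). The difference between these differences was not tested. Different clusters made up the endothelial-like class of each library, as given for Mmp15, and their part in the Adamts5 result was not tested. Satellite-like Adamts5 was 109 CPM in EOM labelled DMD, 123 CPM in EOM labelled WT, 27.6 CPM in TA labelled DMD and 60.1 CPM in TA labelled WT, and EOM over TA labelled DMD was called at 3.96-fold (2.49 to 6.60).

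Other ADAMTS members passed in few classes. Adamts2, which removes the N-propeptide of procollagens, was steady in FAP-like cells at 113 CPM in EOM labelled DMD, 149 CPM in EOM labelled WT and 151 CPM in TA labelled DMD, and was called in tenocyte-like cells at 102 CPM in EOM labelled DMD against 36.2 CPM in TA labelled DMD. The tenocyte-like log2 ratio was 1.28, and 0.82 at its lowest over the alternative settings, which ends the call. Adamts14, of the same group, was 7.73 CPM in FAP-like cells of EOM labelled DMD against 25.6 CPM in EOM labelled WT (log2 -1.01). Adamts8 in satellite-like cells was lower in the library labelled DMD in both muscles, with 18.5 against 61.7 CPM in EOM labelled WT (log2 -1.33) and 9.20 against 39.1 CPM in TA labelled WT (log2 -1.35). Adamts15 in those cells was 40.7 CPM in TA labelled DMD against 9.02 CPM in TA labelled WT (log2 1.42).

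Leaving out erythroid-like cells, the higher calls of TA labelled DMD over TA labelled WT were most frequent in satellite-like cells. In endothelial-like cells, 4 of 24 members were higher, against 3.16% of all genes, and 3 lower, against 1.95%. In satellite-like cells, 6 of 15 were higher, against 6.29%, and 1 lower, against 3.97%, with a median log2 ratio of 0.54 for the members and -0.05 for all genes. The 6 were Timp1, Timp3, Timp4, Adam15, Mmp15 and Adamts15, and of these Timp3, Timp4 and Adam15 lay below the erythroid-like level of TA labelled DMD. In mural-like cells, 2 of 23 were higher, against 2.76%, and 0 lower, against 1.58%. Myofibre-like cells gave 1 of 4 higher, against 20.6%, and 0 lower, against 12%, and erythroid-like cells 9 of 9 higher and 0 lower, against 91.5% and 2.55%, shares that say nothing particular of the members.

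In EOM labelled DMD over EOM labelled WT the calls lay in all 4 classes that could be compared. EOM labelled WT had only 41 macrophage-, 44 Schwann-, 39 myofibre- and 18 tenocyte-like cells, too few for a comparison. Endothelial-like cells gave 2 of 16 members higher, against 1.11% of all genes, and 1 lower, against 0.666%. Mural-like cells gave 4 of 20 higher, against 4.24%, and 1 lower, against 1.97%. The 4 were Timp1, Timp4, Adamts1 and Adamts4, and the lower one was Mmp15. Satellite-like cells gave 0 of 16 higher, against 1.18%, and 2 lower (Adamts1 and Adamts8), against 1.75%. FAP-like cells gave 0 of 28 higher, against 0.396%, and 2 lower (Mmp3 and Adamts14), against 0.524%, and their median log2 ratio was -0.19 for the members and -0.08 for all genes.

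Between muscles labelled WT few members passed. Endothelial-like cells gave 0 of 16 higher and 1 lower (Adamts5), against 0.443% and 0.506% of all genes. Mural-like cells gave 1 of 20 higher (Adamts2, at 45.8 CPM in EOM and 10.9 CPM in TA) and 1 lower (Timp4), against 0.861% and 2.8%. The guard against free RNA described below drops that Timp4 call. Satellite-like cells gave 1 of 12 higher (Adamts1) and 0 lower, against 2.59% and 2.52%. That Adamts1 log2 ratio was 1.05, and 0.81 at its lowest over the alternative settings, which ends the call. Erythroid-like cells gave 0 of 1 higher and 1 lower (Timp4), against 1.04% and 44.4%.

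Between muscles labelled DMD 13 of the 26 lower calls were of TIMPs. Of 30 TIMP pairs, 13 were lower and 0 higher (median -0.88), against 5.05% and 2.64% of all pairs. Timp4 was called lower in FAP-, macrophage-, mural-, myofibre-, satellite-, Schwann- and tenocyte-like cells, and Timp1 in endothelial-, FAP- and macrophage-like cells. Myofibre-like Timp2 was 7.21 CPM in EOM labelled DMD and 312 CPM in TA labelled DMD. Its log2 ratio was -4.23, and -2.53 at its smallest over the alternative settings. The myofibre-like class of TA labelled DMD holds the 41 cells of the Myog-led cluster 21, which has no cell of EOM labelled DMD. The erythroid-like cells of TA labelled DMD held 184 CPM of Timp4. Its FAP-, macrophage-, satellite-, myofibre-like (105 CPM) and Schwann-like (102 CPM) levels in that library lay below this background. The mural-like (308 CPM) and tenocyte-like levels lay above it. The part of the background in these Timp4 calls was not tested. The endothelial-like Timp1 log2 ratio was -1.59, and -0.59 with each library clustered alone, which ends that call. Macrophage-like cells gave 0 of 15 members higher and 6 lower, against 2.14% and 6.34% of all genes. The 6 were Timp1, Timp3, Timp4, Mmp2, Mmp14 and Adamts1, and 5 of them other than Timp1 were at 4.15 CPM or less in EOM labelled DMD. The FAP and erythroid marker sums that moved with them, and the clusters that made up the class, are given above for Timp1. FAP-like cells gave 2 of 31 higher (Mmp3 and Mmp27) and 4 lower (Timp1, Timp4, Adam10 and Adamts4), against 1.56% and 2.81%, and their endothelial marker sums were 105 CPM in EOM labelled DMD and 856 CPM in TA labelled DMD. Endothelial-like cells gave 1 of 23 higher and 4 lower, against 0.968% and 1.94%, and mural-like cells 0 of 22 higher and 1 lower, against 1.23% and 1.3%. Satellite-like cells gave 2 of 20 higher and 3 lower, against 2.54% and 5.64%, and Schwann-like cells 1 of 18 higher and 4 lower, against 2.27% and 5.75%. The small tenocyte-like class gave 1 of 10 higher and 2 lower, against 5.11% and 7.72%, and myofibre-like cells 0 of 2 higher and 2 lower, against 14.5% and 24.1%.

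Genes of neighbouring pathways were counted from lists chosen by function, over gene and class pairs outside erythroid-like cells. Of the regulators of metalloproteinases (18 genes, activators and inhibitors such as Reck, Tfpi2 and the proprotein convertases), 3 of 35 pairs were higher and 2 lower in EOM labelled DMD over EOM labelled WT, and 3 of 30 higher and 3 lower in TA. Over all genes, 1.53% of pairs were higher and 1.13% lower in EOM, and 5.36% higher and 3.22% lower in TA, shares that apply to each list below. Mural-like Tfpi2, a secreted serine proteinase inhibitor bound to the matrix, was 918 CPM in EOM labelled DMD and 118 CPM in EOM labelled WT (7.77-fold), and 556 CPM in TA labelled DMD and 71.3 CPM in TA labelled WT (7.80-fold). Of the plasminogen system, whose plasmin activates pro-MMPs, 2 of 16 pairs were higher and 0 lower in EOM, and 6 of 15 higher and 1 lower in TA. Of the shed membrane proteins, 3 of 30 pairs were higher and 0 lower in EOM, and 4 of 28 higher and 4 lower in TA. Endothelial-like Hbegf, a growth factor freed by ADAMs, was 342 CPM in EOM labelled DMD and 130 CPM in EOM labelled WT, and 367 CPM in TA labelled DMD and 128 CPM in TA labelled WT.

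Proteoglycans and other matrix targets of the ADAMTS enzymes gave 2 of 16 pairs higher and 0 lower in EOM, and 8 of 17 higher and 0 lower in TA. Among the 8 was Dcn (decorin, a FAP marker), at 140 CPM in endothelial-like cells of TA labelled DMD against 2.61 CPM in TA labelled WT, while the erythroid-like cells of TA labelled DMD held 855 CPM of it. The list of astacin proteinases and other procollagen processing genes (Bmp1, Tll1, Tll2, Pcolce and Pcolce2) gave 0 of 11 pairs called in EOM. In TA 2 of 8 were higher and 2 lower. Satellite-like Pcolce was called higher, at 217 CPM in TA labelled DMD and 33.1 CPM in TA labelled WT. The 2 lower calls were satellite-like Pcolce2, at 106 and 301 CPM, and Bmp1, which removes the C-propeptide of procollagens, at 106 and 231 CPM. The ADAMTS-like genes, which lack the proteinase domain, gave 0 of 7 in EOM and 0 of 4 in TA. In EOM over TA labelled DMD, 19 of 43 proteoglycan pairs were lower and 4 higher. Of 29 plasminogen pairs, 11 were lower and 1 higher, against 5.05% of all pairs lower and 2.64% higher. Of the 19, 6 lay in macrophage-, 4 in FAP-, 3 in Schwann- and 2 in myofibre-like cells. The other classes held 1 each. Dcn was lower in EOM in macrophage-like (89.3 against 503 CPM), satellite-like (116 against 383) and myofibre-like cells (50.5 against 223). Those TA levels lay below the 855 CPM of erythroid-like cells, whose part was not tested. In FAP- and tenocyte-like cells Dcn was higher in EOM (log2 1.05 and 1.80). FAP-like Comp was 48.7 CPM in EOM labelled DMD and 329 CPM in TA labelled DMD, Cilp 326 CPM in EOM and 1686 CPM in TA, and Serpine2 74.1 CPM in EOM and 281 CPM in TA. In the other direction FAP-like Lum (lumican) was 2147 CPM in EOM labelled DMD and 911 CPM in TA labelled DMD, and Pcsk6, a proprotein convertase, 297 CPM in EOM and 36.6 CPM in TA.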

How the data were processed

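Total cells of 4 rat muscle samples were profiled with 10x 3' chemistry version 3.1, 1 library each. The deposited values are raw UMI counts per gene and barcode, made by the authors on build rn6 per the submitters' processing notes. The file headers name Cell Ranger 4.0.0. For annotation, cell calling and read filters, the settings were not given in the sources used here. Each title states the opposite disease state from the field used for grouping.

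Barcodes with at least 500 UMIs, at least 200 genes and at most 20% mitochondrial UMIs were kept (scanpy 1.11.5, python 3.11.15, numpy 2.4.6, scipy 1.17.1). The doublet caller's own threshold marked 0 to 16 cells a library, too few to be a working call, so the highest scores were removed up to 0.8% per 1000 cells. That choice was made after its result was seen. Cells were clustered on 2000 variable genes without the members, with 30 components, 15 neighbours and resolution 1.0, with no integration. Clusters were named from marker lists of 23 cell types (at least 3 markers at 2-fold in 10% of cells). Counts were summed per class and library and divided by the class total. Calls used a prior of 10 CPM, classes of at least 50 cells and at least 20 UMIs. Intervals are exact Poisson, Clopper-Pearson or conditional binomial ones at the 95% level, and a count of 0 was read against a limit of 3 counts. Shares were also taken after thinning cells to 1000 UMIs. PCR duplicates were collapsed by UMI, and the 3' end alone is counted, so no isoform is resolved.

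Genes with values in the text are those called with at least 100 CPM, up to 30 pairs, those that reach 100 CPM in a class, the TIMPs, Mmp2, Mmp9 and Mmp14, and those with no UMI. Lower members and cluster values named beside them were chosen after their values were seen. The members and lists were chosen with earlier results of these data known. The steps were tested on simulated counts. Alternatives changed the prior, the filters, the scaling, the doublet step, the clustering and the averaging. Searches for protein motifs were not run here, since no protein table was at hand.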

Additional observations from a re-analysis of the deposited data

Results flagged for a closer look

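Endothelial-like Adamts5 moved in opposite directions between muscles under the 2 labels. The log2 ratio of EOM over TA was 0.95 for the libraries labelled DMD (23.1 against 7.12 CPM) and -1.18 for the libraries labelled WT (15.5 against 47.7 CPM). The difference between these values was not tested, since each rests on 1 library against 1. The 2 ratios share no library with each other, and the ratio for labelled DMD was not past the 2-fold limit. The endothelial-like class was made of different clusters in each library, and their part was not tested.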

How the results depend on the processing

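Over 16 alternative settings, 566 values of 37 gene and class pairs were recomputed. Of these, 490 kept their direction and moved by at most 0.5 of the log2 width of their counting interval, 72 moved further and 4 reversed. Myofibre-like Timp4 in EOM over TA labelled DMD, with 0 UMIs in EOM, had no finite interval. Its values counted as unmoved wherever the direction held, and ranged from -6.73 to -1.63. The reversals were Timp4 in erythroid-like cells of TA labelled DMD over labelled WT, at -1.54 with median of ratios size factors, -1.0 with cells thinned to 1000 UMIs and -0.43 as a mean over cells, and endothelial-like Adamts4 in EOM over TA labelled DMD, at 0.055 with each library clustered alone. The cause was not tested. Counts of calls, each a gene and class pair, moved as follows. With a prior of 1 CPM, 8 pairs were lower in TA labelled DMD over labelled WT, 11 higher and 11 lower in EOM, 8 higher and 7 lower in EOM over TA labelled WT, and 12 higher in EOM over TA labelled DMD. With a prior of 50 CPM, 2 were lower in TA, 3 higher and 2 lower in EOM, 0 higher in EOM over TA labelled WT, and 2 higher and 13 lower in EOM over TA labelled DMD. Higher calls in TA numbered 34 with no filter on UMIs, 12 with thinned cells, and 13 both with a guard against free RNA and without the erythroid-like class, an alternative chosen after seeing the data. The guard kept a pair only where its higher level was at least 0.5 of the CPM over all analysed cells of that library. It did not measure free RNA. Lower calls in TA numbered 8 as a mean over cells. In EOM, 2 were higher under a stricter cell filter (1000 UMIs or more, 10% mitochondrial or less), and 3 lower with thinned cells. In EOM over TA labelled WT, higher calls numbered 5 with totals free of mitochondrial, haemoglobin and ribosomal genes, 0 with that cell filter, 4 with no doublets removed and 6 as a mean over cells, and lower calls 10 with each library clustered alone and 1 with the free RNA guard. In EOM over TA labelled DMD, lower calls numbered 17 with thinned cells and 11 with that guard. Mural-like Adamts4 ranged from 1.55 to 2.39 in TA and from 1.58 to 2.06 in EOM over these settings, endothelial-like Timp4 in TA from -1.78 to -1.31, satellite-like Timp1 in TA from 1.67 to 2.79 and endothelial-like Timp1 in TA from 1.76 to 3.68. Mural-like Timp1 ranged from 1.13 to 1.87 in TA and from 0.92 to 1.41 in EOM, where thinning put it under the limit. Class totals against median of ratios factors shifted all genes by -0.14 and -0.15 (log2) in endothelial- and mural-like cells of TA, and by 3.20 in erythroid-like cells. Classes agreed for 96.4% of cells with the members among the clustering genes, 95.6% at resolution 0.5 and 89.1% with libraries clustered alone. No paired analysis was possible because each group is 1 library and the labels carry no replicate numbers.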
